A study of Mus musculus with 6 samples.

Results

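The 41 genes described here are transcription factors and a few surface or structural proteins that mark the first lineages of the mouse embryo, from the primitive streak to endoderm, mesoderm, neural tissue and trophoblast. They were taken by name from a list. The table holds 31879 genes, and all 41 were found, 39 under the listed symbol and Tfap2a and Tfap2c under the older symbols Tcfap2a and Tcfap2c. The RNA is from mouse embryonic stem cells of the clonal line TT-FHAgo2, whose Argonaute 2 (Ago2) is under doxycycline control. Ago2 is the protein that holds a microRNA and brings it to its target transcripts. All cells had been propagated in 0.1 µg/mL doxycycline on gelatinized plates with serum and leukemia inhibitory factor. In 1 condition the drug was then removed for 96 h (2 libraries), and in the other it was raised to 2.5 µg/mL for 48 h (2 libraries), a dose that brings Ago2 to wild-type levels according to the labels. The presence of the drug and the time in culture differ together, so their effects cannot be told apart, and all cells descend from 1 clone. The 2 spike-in samples of the series were not analysed here.

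Embryonic stem cells are held in a self-renewing state by a network around Pou5f1, Sox2 and Nanog, in which most lineage factors are silent or barely transcribed. On exit from that state the primitive streak forms mesoderm and endoderm, the remaining epiblast forms neural tissue, and trophoblast arises apart from both and makes the fetal part of the placenta. MicroRNAs of the miR-290 and miR-302 families repress transcripts that pair with their seed, the bases next to the first base of the microRNA. The levels of these microRNAs were not analysed here.

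The shared seed is shown first, because Ago2 is the carrier of these microRNAs. These are RefSeq mature sequences on build GRCm38.p6, 5′ to 3′, with bases 2 to 8, the seed, in capitals.
mmu-miR-291a-3p: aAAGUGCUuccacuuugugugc
mmu-miR-294-3p: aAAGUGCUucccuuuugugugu
mmu-miR-302b-3p: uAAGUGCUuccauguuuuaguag
All 3 hold the seed AAGUGCU. The matching site in a transcript is AGCACTT (7mer-m8), AGCACTTA (8mer, which contains both shorter forms) or GCACTTA (7mer-A1), searched on the sense strand of 1 annotated 3′ untranslated region for each gene, the longest in GENCODE M21. Of the members found below to be higher without doxycycline, 3 of 13 held a site, namely Nr2f2, Tal1 and Ncam1, and those sites are shown as the ones among the called members. Each is given as 30 bases of GRCm38 that end in the site, in capitals.
Nr2f2, chr7:70354031-70354060, minus strand: ggcaactcagagatggtggaaatGCACTTA
Nr2f2, chr7:70353635-70353664, minus strand: agcatgacaaaataacactgttgGCACTTA
Tal1, chr4:115071486-115071515, plus strand: acgccatgtctgtgggcaagcccAGCACTT
Ncam1, chr9:49503121-49503150, minus strand: ctatcgggtagacaactctgaggGCACTTA
A site was held by 21.7% of the 11508 tested genes with an annotated region, by 29.2% of the genes called higher and by 15.1% of those called lower. The median length of the region also differed, at 1320 nt in all, 1511 nt in the higher and 1076 nt in the lower genes. The part of length in these shares was not tested. None of the 5 members found to be lower held one, 2 of 5 tested members without a call did (Hhex and Pax6), and so did 2 of 18 members that were not tested (Mixl1 and Hnf4a). No member held an 8mer, which 3.68% of the tested genes did. The share among the higher members lay near that of all tested genes, and a match of letters is not a measured binding site.

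Values are FPKM (fragments scaled by transcript length and library total), given by the authors for each assembled isoform and summed per gene. The limma test was run on log2(FPKM + 0.5) for every gene whose mean reached 1 FPKM in one condition or both. A log2 change is no doxycycline minus doxycycline on that scale, which understates the change of low genes. Errors are SD over n = 2 libraries. Separate cultures are not stated for the 2 libraries of a condition, and the p-values therefore reflect library-to-library spread alone, possibly of technical origin. In bulk RNA, fewer cells of a type and less RNA per cell cannot be told apart. In the libraries numbered 1 the low values stepped in whole fragments (100% of them without and 99.9% with doxycycline, within 0.1 fragment), which gave depths of 46.7 and 46.5 M fragments (M, mega). The libraries numbered 0 showed no clear step (40.8% and 41.2%), and their depth is unknown. Chance gives 20% at 1 fixed setting of depth and length, but the best of many settings was taken, so the chance level of these shares is not known. Ago2 itself measured 28.7 and 28.8 FPKM without doxycycline, against 35.2 and 36.6 FPKM with it (log2 change -0.32, SE 0.08, limma adjusted p = 0.0293). That call was lost without each library in turn, with adjusted p in limma of 0.0911 and 0.0782 without the no-doxycycline libraries 0 and 1, and of 0.135 and 0.206 without the doxycycline libraries 0 and 1. It was also lost with TPM over the isoforms used (log2 change -0.16, adjusted p = 0.149 in limma), on the most abundant isoform alone (-0.18, 0.413) and on annotated isoforms alone (-0.82, 0.0517). The 12 markers of embryonic stem cells summed to 4130 and 4758 FPKM without doxycycline, against 3982 and 4492 FPKM with it. Pou5f1 measured 502 and 603 FPKM against 575 and 648 FPKM, and Nanog, which passed limma (adjusted p = 0.0386), 449 and 550 FPKM against 315 and 371 FPKM.

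Of the 41 members, 23 reached the minimum for testing, with 13 called higher and 5 called lower in the cells without doxycycline. The background is broad: 19.4% of the 13268 tested genes were called higher and 20.9% lower, 40.3% in all. The higher members were spread over all groups and were led by the epithelial factor Elf3 and the nuclear receptor Nr2f2, with log2 changes of 1.72 and 1.70. The lower members were Pou3f1, Sox3, Sox11, Cdx1 and Tfap2a. The other 18 members stayed under the minimum. Near 0 means under 0.1 FPKM in each of the 4 libraries. Of all 41 members 6 were near 0, against 39.0% of all genes in the table. These 6 were Lhx1, Sox17, Gata6, Cer1, Cdx2 and Nr2f1.

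The minimum itself shapes these counts. Of the 23 tested members, 8 reached it without doxycycline alone and 3 with doxycycline alone, and such genes were tested because they were higher in that condition. Of all tested genes 7.23% reached it in 1 condition alone, and 36.1% of those were called higher and 21.9% lower. Among the 12 members that averaged 1 FPKM or more in both conditions, 5 were higher, 2 lower and 5 passed in neither direction, beside 18.1% higher and 20.8% lower of the 12309 such genes. In limma with no minimum, which takes in all 41 members, 12 were higher and 3 lower, beside 8.89% and 8.19% of 23827 genes. The 3 lower ones were Pou3f1, Sox3 and Sox7, which was not in the main test. The median log2 change over all 41 members was 0.02, against 0 over all genes of the table and -0.06 over the tested ones. Summed over the members, FPKM was 182.2 and 182.6 without doxycycline, against 132.5 and 134.9 with it. Elf3 alone held 43.6 and 47.3 FPKM of these sums without and 12.6 and 14.3 FPKM with doxycycline. Otx2 held 19.9 and 20.2 FPKM against 9.87 and 11.2 FPKM, so much of the difference lay in these abundant members. In 16 members both values without doxycycline lay above both with it, in 12 they lay below, and in 13 the conditions overlapped. Of the 23 tested members, the 13 called higher and Tfap2c lay wholly above, and the 5 called lower and Foxd3 wholly below. Hhex, Zic2 and Pax6 overlapped. Of all tested genes, 33.1% lay wholly above and 40.0% wholly below, 73.1% in all.

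**Figure D1:**
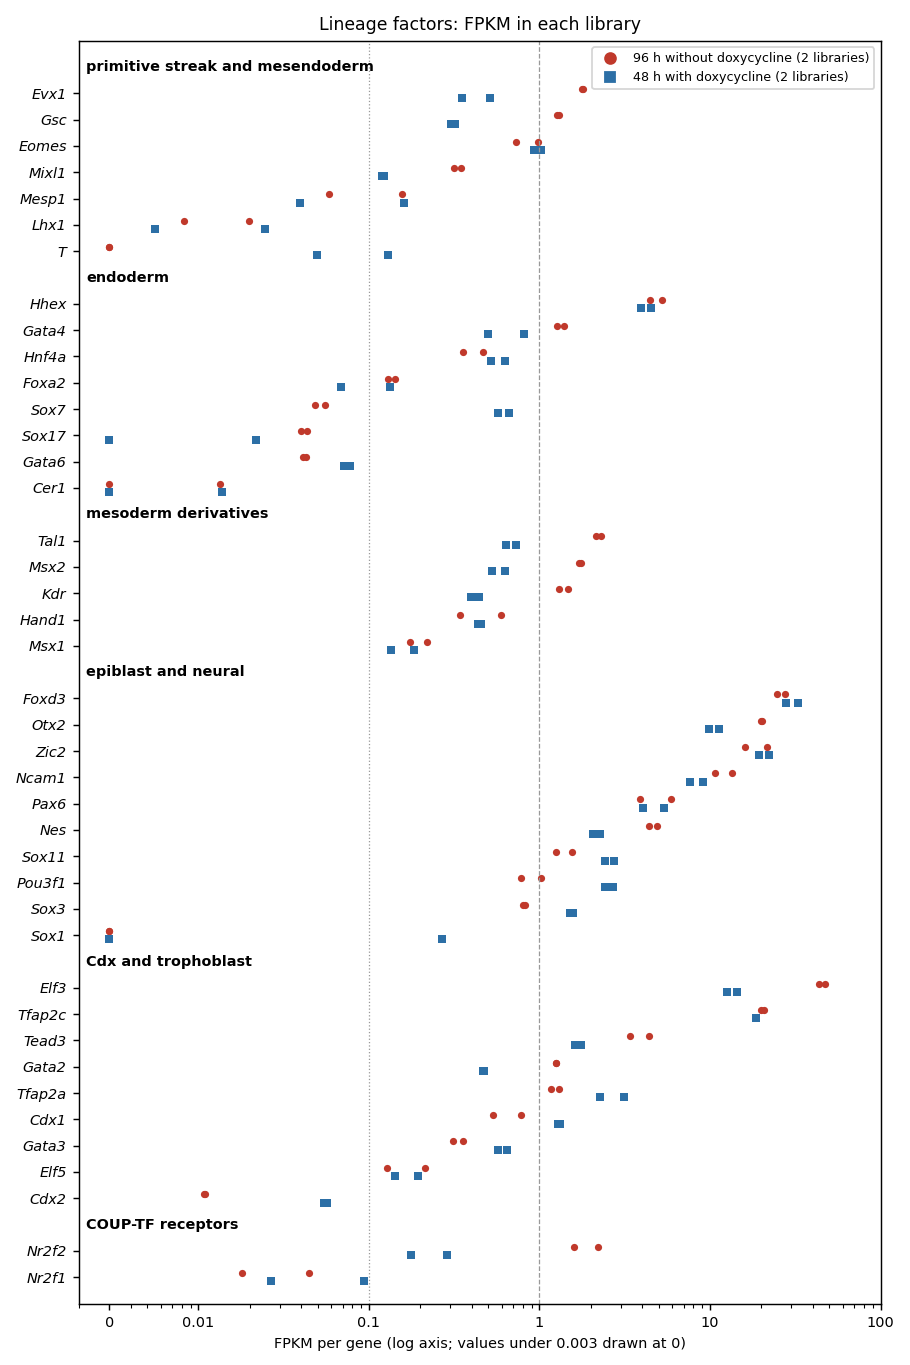
FPKM of each of the 41 lineage factors on a log axis, grouped by role, with 2 libraries without doxycycline (red circles) and 2 with it (blue squares); the dashed line marks the testing minimum of 1 FPKM and the dotted line the near-0 limit of 0.1 FPKM. Elf3 and Nr2f2 have the red points far to the right of the blue ones, Pou3f1 and Sox7 the reverse, and Lhx1, Sox17, Gata6, Cer1, Cdx2 and Nr2f1 stay left of the dotted line.

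Among the primitive streak and mesendoderm factors, Gsc and Evx1 were tested and both were higher. Gsc, a homeobox factor of the organizer (chromosome 12, 105709419 to 105711446, minus strand, build NCBIM37), measured 1.30 and 1.27 FPKM without doxycycline, against 0.321 and 0.303 FPKM with it. Evx1, a homeobox factor of the posterior streak (chromosome 6, 52263492 to 52268372, plus strand), measured 1.80 and 1.79 FPKM without doxycycline, against 0.511 and 0.351 FPKM with it. In neither gene did the conditions overlap, and the mean FPKM was 4.11-fold higher for Gsc and 4.16-fold higher for Evx1. The log2 changes were 1.13 (SE 0.14, limma adjusted p = 0.0050) for Gsc and 1.31 (SE 0.15, limma adjusted p = 0.0045) for Evx1. At the depth of the libraries numbered 1, these values rest on 59 and 14 fragments for Gsc and on 224 and 44 for Evx1, without and with doxycycline. Both genes reached 1 FPKM without doxycycline alone.

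The other 5 streak factors stayed under the minimum. T (brachyury), the T-box factor of streak and notochord, was listed at 0 in both libraries without doxycycline, against 0.0497 and 0.129 FPKM with it. In the libraries numbered 1 that is 0 fragments, which allows up to 3, against 9 fragments. Eomes, a T-box factor of streak, endoderm and trophoblast, measured 0.986 and 0.727 FPKM without doxycycline, against 1.02 and 0.932 FPKM with it, and the conditions overlapped. Mixl1, a homeobox factor of mesendoderm, measured 0.346 and 0.315 FPKM without doxycycline, against 0.120 and 0.123 FPKM with it. It was too low for the main test, and passed limma with no minimum (log2 change 0.42, adjusted p = 0.0277) on 31 fragments without and 12 with doxycycline in the libraries numbered 1. Mesp1, a factor of nascent and cardiac mesoderm, rested on 3 and 2 fragments there, and Lhx1, a factor of the head organizer, on 2 and 1, so that no difference was detectable at this depth. Of the 17 further streak and mesoderm genes of the list used here, 6 were tested, 4 were higher and none lower. Among them the signal Wnt3a measured 1.91 and 1.76 FPKM against 0.379 and 0.392 FPKM (limma adjusted p = 0.0030), and Snai1, a repressor of epithelial genes, 3.96 and 4.06 FPKM against 1.26 and 1.04 FPKM (0.0026). Wnt3a reached 1 FPKM without doxycycline alone, and was tested because it was higher there. The Nodal signal itself measured 52.0 and 52.4 FPKM without doxycycline, against 33.0 and 32.2 FPKM with it (limma adjusted p = 0.0044). Tdgf1 and Myl7 were tested and did not pass (limma adjusted p = 0.569 and 0.0625). Of the genes too low for the test, Tbx6, Mesp2, Wnt3 and Isl1 lay wholly lower without doxycycline. Fgf8, Foxc2 and Pdgfra lay wholly higher. Of the list 4 genes were near 0, among them Msgn1 and Wnt3.

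Of the 8 endoderm factors 3 were near 0 and 2, Gata4 and Hhex, were tested. Gata4, a zinc-finger factor of primitive endoderm and heart (chromosome 14, 63817759 to 63890529, minus strand, NCBIM37), measured 1.27 and 1.39 FPKM without doxycycline, against 0.498 and 0.814 FPKM with it. The conditions did not overlap, and the mean was 2.03-fold higher (log2 change 0.68, SE 0.18, limma adjusted p = 0.0373). Gata4 reached 1 FPKM without doxycycline alone, and was tested because it was higher there. The call was lost with no minimum on low values (adjusted p = 0.0820 in limma) and without 3 of the 4 libraries, at 0.0827 and 0.103 without the no-doxycycline libraries 0 and 1 and 0.117 without the doxycycline library 0. Its 13 assembled isoforms also divided the value differently between libraries: a 3374-nt form held 0.383 and 0.406 FPKM without doxycycline, against 0 and 0.00454 FPKM with it, and a 3344-nt form held 0.455 FPKM in the doxycycline library 0 and at most 0.0137 FPKM in the others.

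Hhex, a homeobox factor of the anterior visceral endoderm, was the most abundant endoderm member at 5.23 and 4.42 FPKM without doxycycline, against 3.96 and 4.49 FPKM with it, and the conditions overlapped (log2 change 0.17, SE 0.12, limma adjusted p = 0.310). Sox7, an HMG-box factor of parietal endoderm and endothelium, measured 0.0482 and 0.0549 FPKM without doxycycline, against 0.663 and 0.572 FPKM with it. Both values without the drug lay far below both with it, and the libraries numbered 1 held 8 fragments without and 83 with doxycycline. Sox7 stayed under 1 FPKM in both conditions and so outside the main test, and in limma with no minimum it was lower (log2 change -1.02, adjusted p = 0.0156).

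The other endoderm factors did not pass limma in that fit. Foxa2, a forkhead factor of definitive endoderm and node, measured 0.130 and 0.143 FPKM against 0.133 and 0.0683 FPKM, and the conditions overlapped. Hnf4a, a nuclear receptor of visceral endoderm and liver, measured 0.464 and 0.355 FPKM against 0.521 and 0.626 FPKM. Gata6, a factor of primitive endoderm, held 6 and 10 fragments in the libraries numbered 1, Sox17, a factor of definitive endoderm, 6 and 3, and Cer1, a secreted inhibitor of Nodal, 0 and 1, without and with doxycycline. Of the 18 further endoderm and yolk sac genes, 6 were tested, 4 were higher and 1 lower. The basement membrane genes Sparc, Col4a1 and Col4a2 were higher, with 158 and 163 FPKM without and 83.4 and 87.8 FPKM with doxycycline for Sparc (limma adjusted p = 0.0029). Lama1, a laminin chain of the same membrane, was lower at 16.1 and 19.6 FPKM against 25.5 and 27.0 FPKM (limma adjusted p = 0.0205). Of the genes too low for the test, Dab2, Pth1r and Foxa3 lay wholly lower without doxycycline, and Cxcr4 and Sox18 wholly higher. Dab2 measured 0.171 and 0.277 FPKM against 0.716 and 0.877 FPKM, and Pth1r 0.0869 and 0.113 FPKM against 0.372 and 0.407 FPKM. Cxcr4 measured 0.869 and 0.780 FPKM against 0.416 and 0.303 FPKM. The yolk sac transcripts Afp and Ttr were listed at 0 in every library.

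Of the 5 factors of mesoderm derivatives, Tal1, Kdr and Msx2 were tested and all 3 were higher. Tal1, a helix-loop-helix factor of blood and endothelium (chromosome 4, 114729031 to 114744361, plus strand, NCBIM37), measured 2.15 and 2.28 FPKM without doxycycline, against 0.635 and 0.730 FPKM with it. Kdr, a receptor for vascular endothelial growth factor (chromosome 5, 76328852 to 76374483, minus strand), measured 1.31 and 1.47 FPKM without doxycycline, against 0.396 and 0.442 FPKM with it. Msx2, a homeobox factor that responds to bone morphogenetic proteins (chromosome 13, 53562250 to 53568443, minus strand), measured 1.74 and 1.71 FPKM without doxycycline, against 0.630 and 0.529 FPKM with it. The conditions lay well apart in each of the 3, and each reached 1 FPKM without doxycycline alone. Means were 3.25-fold higher for Tal1 (log2 change 1.20, SE 0.13, limma adjusted p = 0.0038), 3.31-fold for Kdr (1.04, SE 0.14, adjusted p = 0.0063) and 2.98-fold for Msx2 (1.05, SE 0.13, adjusted p = 0.0055). Most of the Tal1 value lay on a 4213-nt form, at 1.20 ± 0.00641 FPKM without doxycycline against 0.444 ± 0.0789 FPKM with it.

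The related Msx1 stayed low, at 0.173 and 0.220 FPKM against 0.183 and 0.135 FPKM, and so did Hand1, a factor of heart mesoderm and trophoblast giant cells, at 0.341 and 0.594 FPKM against 0.456 and 0.437 FPKM. In both the conditions overlapped. Of the 9 further blood and endothelial genes, 4 were tested, 2 were higher and none lower. Gata1, the erythroid zinc-finger factor, measured 2.46 and 2.85 FPKM without doxycycline, against 0.535 and 0.697 FPKM with it (limma adjusted p = 0.0031), and Pecam1, an endothelial adhesion protein that embryonic stem cells also carry, 47.6 and 52.3 FPKM against 20.6 and 24.7 FPKM (0.0037). Gata1 reached 1 FPKM without doxycycline alone, and was tested because it was higher there. The tested endothelial receptor Tek did not pass, at 4.63 and 4.97 FPKM against 4.21 and 4.10 FPKM (limma adjusted p = 0.171), and nor did Etv2. The other 5 genes of the list stayed under 1 FPKM in every library, among them Runx1 at 0.0715 and 0.0966 FPKM against 0.183 and 0.147 FPKM and Cdh5 at 0.166 and 0.235 FPKM against 0.00559 and 0.0288 FPKM.

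**Figure D2:**
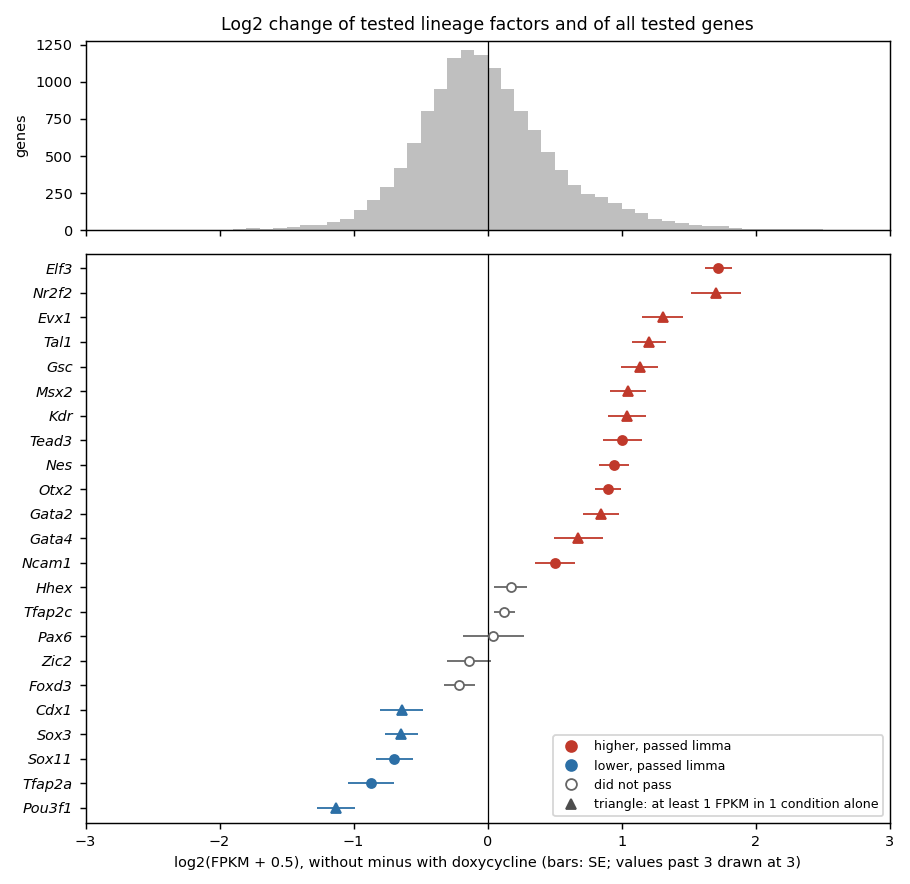
Log2 change of the 23 tested lineage factors (below, points with SE bars) under the distribution of all 13268 tested genes (above, number of genes per bin), both as values without minus with doxycycline on the log2(FPKM + 0.5) scale. The 13 red points passed limma as higher, the 5 blue points as lower and the 5 open points in neither direction, and triangles mark genes that reached 1 FPKM in 1 condition alone.

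Of the 10 epiblast and neural factors 9 were tested, and they divided evenly into 3 higher, 3 lower and 3 without a call. Otx2, a homeobox factor of epiblast and forebrain (chromosome 14, 49276160 to 49287319, minus strand, NCBIM37), measured 19.9 and 20.2 FPKM without doxycycline, against 9.87 and 11.2 FPKM with it. Nes, the intermediate filament nestin of neural stem cells, measured 4.37 and 4.89 FPKM without doxycycline, against 2.07 and 2.26 FPKM with it. Neither gene overlapped between conditions, and the means were 1.90-fold higher for Otx2 (log2 change 0.90, SE 0.10, limma adjusted p = 0.0039) and 2.14-fold higher for Nes (0.94, SE 0.11, adjusted p = 0.0046). Otx2 was divided over 20 isoforms, and its most abundant isoform alone did not pass (log2 change 0.51, limma adjusted p = 0.223). Ncam1, a neural cell adhesion molecule, measured 10.7 and 13.5 FPKM against 7.59 and 9.13 FPKM, a small difference close to the threshold (log2 change 0.50, SE 0.15, limma adjusted p = 0.0486). It was lost in 7 of 18 alternatives, among them leaving out the no-doxycycline library 1 (adjusted p = 0.140) or the doxycycline library 0 (0.156).

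The 3 lower members of the group were Pou3f1, Sox3 and Sox11. Pou3f1 (also Oct6), a POU factor of the epiblast (chromosome 4, 124334896 to 124337899, plus strand), measured 1.02 and 0.781 FPKM without doxycycline, against 2.69 and 2.43 FPKM with it. Sox11, an HMG-box factor of immature neurons, measured 1.55 and 1.26 FPKM without doxycycline, against 2.75 and 2.42 FPKM with it. Sox3, an HMG-box factor of neural progenitors on chromosome X, measured 0.800 and 0.817 FPKM without doxycycline, against 1.51 and 1.58 FPKM with it. None of the 3 overlapped, and Pou3f1 was the furthest apart, with the mean without doxycycline 0.351 times the mean with it. The log2 change of Pou3f1 was -1.13 (SE 0.14, limma adjusted p = 0.0053), and the call held in all 17 alternatives in which the gene was tested. Sox11 (-0.70, SE 0.14, limma adjusted p = 0.0165) lost its call without the doxycycline library 0 (0.0569), with no minimum (0.0535), on annotated isoforms alone (0.0520) and on the most abundant isoform alone (0.0619). Sox3 (-0.64, SE 0.12, limma adjusted p = 0.0157) lost its call on annotated isoforms alone (0.0569), without the no-doxycycline library 0 (0.0520) and without the doxycycline library 0 (0.0503) or 1 (0.0712). Sox3 and Pou3f1 reached 1 FPKM with doxycycline alone.

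The factors without a call included some of the most abundant members. Foxd3, a forkhead factor of epiblast and neural crest, measured 27.7 and 24.8 FPKM without doxycycline, against 32.9 and 28.0 FPKM with it (limma adjusted p = 0.201). Zic2, a zinc-finger factor of the neural tube, measured 21.7 and 16.1 FPKM against 22.1 and 19.3 FPKM, and Pax6, a paired-box factor of eye and brain, 3.91 and 5.92 FPKM against 4.03 and 5.40 FPKM. The conditions overlapped for Zic2 and Pax6, whose 2 libraries within a condition differed by more than the conditions did. Pax6, with 43 isoforms, overlaps Elp4 on the opposite strand by 5542 nt. Transcripts of the opposite strand also overlap Evx1, Lhx1, Gata6, Foxd3, Zic2, Ncam1, Elf3, Gata3, Tfap2a and Nr2f1, by 25 to 269 nt. The libraries were strand-specific per the labels, but the strand setting of the counting is not given in the sources used here, so reads of such pairs may be mixed.

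Sox1, the earliest neural HMG-box factor, showed how far a value can depend on the isoform rule. By the rule it was listed at 0 in both libraries without doxycycline and at 0.268 and 0 FPKM with it. A single-exon 4047-nt isoform at the same place (chromosome 8, 12395491 to 12399537, plus strand, NCBIM37), which the assembly compares with Sox1 by overlap alone and which the rule leaves out, held 2.68 and 2.79 FPKM without doxycycline, against 3.47 and 2.87 FPKM with it. It held 505 and 517 fragments in the libraries numbered 1, so the 0 for Sox1 does not describe the locus. Of the 20 further epiblast and neural genes, 8 were tested, 1 was higher and 2 were lower. Lhx2, a LIM homeobox factor of forebrain, was higher (1.39 and 1.25 FPKM against 0.179 and 0.135 FPKM, limma adjusted p = 0.0035), and the DNA methyltransferase Dnmt3b lower (18.9 and 22.1 FPKM against 45.8 and 51.1 FPKM, adjusted p = 0.0030). Lhx2 reached 1 FPKM without doxycycline alone, and was tested because it was higher there. Fgf5, a marker of the later epiblast, was under 0.1 FPKM in every library, as were Neurog2 and Dcx of the neuronal programme. The neuronal markers Tubb3 and Map2 of the same list were not low, and neither passed limma. Tubb3 measured 55.6 and 65.8 FPKM without doxycycline, against 63.3 and 66.4 FPKM with it (limma adjusted p = 0.501). The mean of Map2 was 2.42 FPKM without and 1.29 FPKM with doxycycline (limma adjusted p = 0.0546). Of 8 neural crest and surface ectoderm markers 1 was tested and none was called in either direction, with summed values of 3.23 and 3.33 FPKM without and 2.81 and 2.95 FPKM with doxycycline.

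Elf3 gave the largest log2 change of the tested members, 1.72 against 1.70 for Nr2f2. Their order turned with a pseudocount of 0.1 (1.75 for Elf3 and 2.59 for Nr2f2), with TPM (1.90 and 2.26), on annotated isoforms alone (1.55 and 1.70), without the no-doxycycline library 0 (1.78 and 1.88) and without the doxycycline library 0 (1.63 and 1.81). Elf3 encodes an ETS factor of epithelia (chromosome 1, 137150150 to 137155389, minus strand, NCBIM37). It measured 43.6 and 47.3 FPKM without doxycycline, against 12.6 and 14.3 FPKM with it, so that both values without the drug stood more than 3 times above either value with it. The mean was 3.38-fold higher (log2 change 1.72, SE 0.10, limma adjusted p = 0.0019) and ranked 103rd of 13268 by log2 change. All 18 alternatives kept its call, and the values rest on 3827 and 1171 fragments in the libraries numbered 1. Its 1959-nt form matched the annotated transcript and held 24.3 and 28.6 FPKM without doxycycline, against 6.92 and 10.8 FPKM with it, and the 1801-nt form 11.2 and 13.4 FPKM against 3.53 and 1.69 FPKM.

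**Figure D3:**
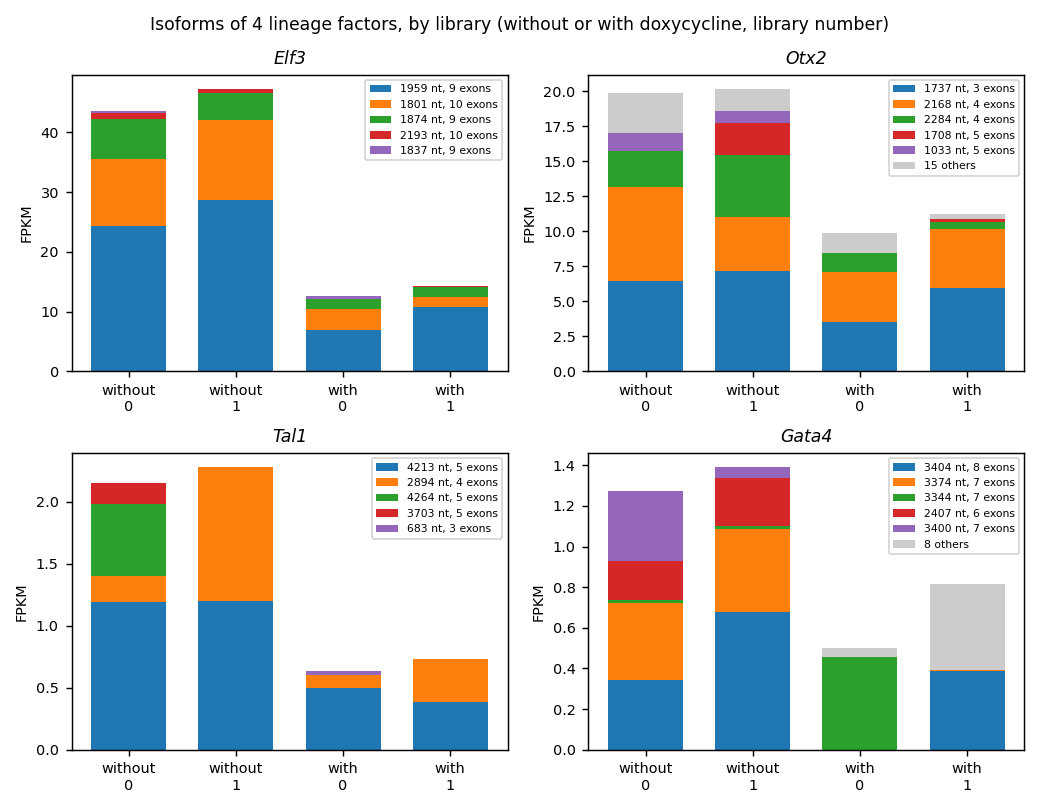
FPKM of the assembled isoforms of Elf3, Otx2, Tal1 and Gata4 as stacked bars, 1 bar for each library, without doxycycline on the left of each panel and with it on the right. The 3 most abundant isoforms of Elf3 are the same in all 4 libraries, while Gata4 with doxycycline rests on different isoforms in its 2 libraries.

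Other trophoblast factors moved in both directions. Gata2, a zinc-finger factor of trophoblast and blood, measured 1.244 and 1.242 FPKM without doxycycline, against 0.468 and 0.474 FPKM with it. That difference was far larger than the gap between libraries of a condition (log2 change 0.84, SE 0.13, limma adjusted p = 0.0095). Gata2 reached 1 FPKM without doxycycline alone, and was tested because it was higher there. In limma with no minimum it also passed (adjusted p = 0.0212). Tead3, a TEAD factor of the Hippo pathway that is high in placenta, measured 3.39 and 4.41 FPKM without doxycycline, against 1.61 and 1.75 FPKM with it (1.01, SE 0.15, adjusted p = 0.0076). Its call was lost on annotated isoforms alone (adjusted p = 0.0588 in limma) and on the most abundant isoform alone (0.102). Tfap2a, an AP-2 factor of surface ectoderm and neural crest, measured 1.31 and 1.17 FPKM without doxycycline, against 3.14 and 2.26 FPKM with it (-0.87, SE 0.17, limma adjusted p = 0.0160), and the call was lost with no minimum (adjusted p = 0.0547) and on its most abundant isoform alone (log2 change -0.16, adjusted p = 0.804). The related Tfap2c, of trophoblast and germ line, was high in both conditions at 20.7 and 19.9 FPKM against 18.5 and 18.7 FPKM and did not pass (limma adjusted p = 0.261).

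Cdx1, a homeobox factor of posterior axis patterning, measured 0.532 and 0.782 FPKM without doxycycline, against 1.28 and 1.31 FPKM with it. The conditions did not overlap (log2 change -0.64, SE 0.16, limma adjusted p = 0.0321), and Cdx1 reached 1 FPKM with doxycycline alone. The call was lost with no minimum (adjusted p = 0.0675 in limma), on annotated isoforms alone (0.0841) and on the most abundant isoform alone (0.0932). It was also lost without the no-doxycycline library 0 (0.0998) and without the doxycycline library 0 (0.0793) or 1 (0.0999). Cdx2, the homeobox factor that defines trophectoderm, was near 0 at 0.0108 and 0.0109 FPKM without and 0.0567 and 0.0547 FPKM with doxycycline, on 1 and 5 fragments in the libraries numbered 1. Elf5, an ETS factor of trophoblast stem cells, measured 0.215 and 0.128 FPKM against 0.142 and 0.194 FPKM and overlapped. Gata3, the zinc-finger relative of Gata2, measured 0.354 and 0.310 FPKM against 0.647 and 0.573 FPKM, the opposite order from Gata2, and did not pass limma with no minimum (log2 change -0.42, adjusted p = 0.0577). Of 18 further trophoblast genes 17 were in the table, 9 were tested, 4 were higher and 1 was lower. The keratins Krt8 and Krt19 were higher, with 12.8 and 13.7 FPKM against 1.93 and 2.05 FPKM for Krt19 (limma adjusted p = 0.0015). Krt18 did not pass, at 5.91 and 6.99 FPKM against 4.42 and 5.17 FPKM (limma adjusted p = 0.0626). Krt7 was too low for the test, at 0.135 and 0.266 FPKM against 0.301 and 0.402 FPKM. Tead4 was higher (22.3 and 23.3 FPKM against 9.66 and 11.6 FPKM, limma adjusted p = 0.0037). Ascl2 was lower at 0.612 and 0.384 FPKM against 2.43 and 2.50 FPKM (limma adjusted p = 0.0034) and reached 1 FPKM with doxycycline alone. The placental genes Tpbpa and Prl3d1 were listed at 0 in every library.

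The COUP-TF nuclear receptors are near relatives that repress and activate genes in mesenchyme, vessels and brain. Nr2f2 (chromosome 7, 77496832 to 77511621, minus strand, NCBIM37) measured 1.60 and 2.19 FPKM without doxycycline, against 0.287 and 0.177 FPKM with it. Both values without the drug stood several times above either value with it, and the mean was 8.16-fold higher, the largest ratio of means among the tested members (log2 change 1.70, SE 0.19, limma adjusted p = 0.0042). It rested on 298 fragments without and 33 with doxycycline in the libraries numbered 1 and ranked 106th of 13268. Nr2f2 reached 1 FPKM without doxycycline alone and carries 2 of the 7mer-A1 sites printed above. Most of its value lay on a 4220-nt form, at 1.60 and 1.22 FPKM without doxycycline against 0.203 and 0.175 FPKM with it. Nr2f1 was near 0, at 0.0181 and 0.0446 FPKM without and 0.0265 and 0.0930 FPKM with doxycycline.

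**Figure D4:**
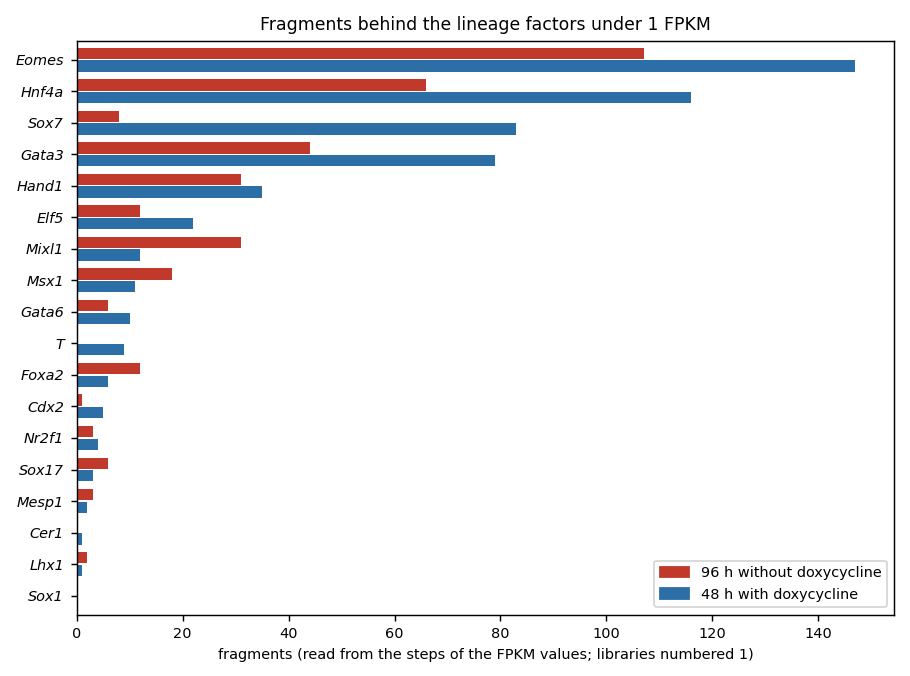
Fragments behind the 18 lineage factors under the testing minimum, read from the steps of the FPKM values in the 2 libraries numbered 1, without doxycycline (red) above with doxycycline (blue). Sox7 stands at 8 and 83 fragments and T at 0 and 9, while Mesp1, Lhx1, Cer1, Sox17, Cdx2, Nr2f1 and Sox1 have 6 or fewer in each library. For Sox1 the isoform rule leaves out an isoform of the same place with 505 and 517 fragments.

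Markers of other cells that the cultures could hold were read beside these results. Of 8 fibroblast markers 5 were under 0.1 FPKM in every library, among them Col3a1 and Postn, listed at 0 in each. The list summed to between 2.73 and 3.40 FPKM without and 2.30 and 2.45 FPKM with doxycycline, most of it Thy1, which did not pass limma (2.18 and 2.35 FPKM against 1.94 and 1.84 FPKM, adjusted p = 0.189). Of 8 markers of the rare early-embryo-like state of stem cell cultures 4 were in the table and 2 were tested, and both were higher. Zscan4c measured 2.97 and 2.80 FPKM against 1.36 and 1.68 FPKM (limma adjusted p = 0.0118), and Zscan4f 5.99 and 6.44 FPKM against 3.97 and 2.59 FPKM (0.0232). Of the 12 embryonic stem cell markers 3 were higher, 4 lower and 5 without a call, with Fgf4 at 156 and 143 FPKM against 88.9 and 79.5 FPKM (adjusted p = 0.0050) and Utf1 at 173 and 215 FPKM against 279 and 312 FPKM (0.0228). The part of these shifts in the lineage factors' values was not tested.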

How the data were processed

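FPKM per assembled isoform was deposited by the authors, who used TopHat2 2.0.9 and Cufflinks 2.1.1 on NCBIM37, per the submitters' processing notes. The table held 181027 isoforms. Those with no gene name (31251) were not used, and 8207 named ones were left out, because they were under 200 nt (98.9% to 99.6% of summed FPKM lay there) or, per the deposited annotation, neither matched nor shared a junction with a named transcript. The 141569 isoforms used were summed over 31879 genes, after 25 symbols that a spreadsheet had turned into dates were restored from a second table. The sums came to 0.449 and 0.485 M FPKM without and 0.509 and 0.535 M with doxycycline.

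The 13268 genes whose mean reached 1 FPKM without or with doxycycline were tested two-sided on log2(FPKM + 0.5) by limma 3.58.1 with a trend (R 4.3.3). The residual degrees of freedom were 2 and the prior ones 3.10, and p-values were adjusted by Benjamini-Hochberg and read at 0.05. The procedure was tested on simulated data. Fragments were read from the steps of low FPKM values. Python 3.11.15, pandas 2.3.3, numpy 2.4.6 and matplotlib 3.10.9 did the rest. All 41 members were named, and of each further list at most the 4 tested genes of largest absolute change, with other genes of those lists named only as low or as markers after their values were seen. The members and lists were chosen with earlier results of these data known. Alternatives covered pseudocount, minimum, scaling, isoform rule, trend, block and left-out libraries.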

Additional observations from a re-analysis of the deposited data

How the results depend on the processing

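Calls of Gsc, Evx1, Kdr, Tal1, Msx2, Pou3f1, Nes, Elf3, Gata2 and Nr2f2 held in every alternative in which they were tested. The count of higher members was 3 when the minimum was 5 FPKM (6 members reached it) and 8 with the most abundant isoform of each gene alone, and it ranged from 11 to 13 as each library was left out. The count of lower members was 3 with no minimum, 0 at a minimum of 5 FPKM, 1 with annotated isoforms alone and 1 with the most abundant isoform, and from 2 to 5 as each library was left out. The median log2 change of the 41 members was -0.0442 with library medians set equal, 0.12 with TPM over the isoforms used and 0.0751 with the median change of all tested genes set to 0 (the last added after seeing the data), and from 0.0189 to 0.0698 as each library was left out. With TPM, 3 members were near 0, and the median log2 change of all tested genes was 0.10, against -0.06 as deposited. The log2 change of Pax6 turned to -0.0215 with library medians set equal and -0.351 with its most abundant isoform, and ranged from -0.229 to 0.314 as each library was left out, below 0 without the no-doxycycline library 1 or the doxycycline library 0 (-0.148). That of Zic2 turned to 0.0152 with TPM and ranged from -0.352 to 0.0698 as each library was left out, above 0 without the no-doxycycline library 1, and that of Tfap2c turned to -0.0567 with its most abundant isoform. Of all called genes 48.2% were higher as deposited, 37.9% with library medians set equal, 67.7% with TPM and 56.2% with the median change set to 0. Over all genes, limma called 2578 higher and 2773 lower, against 3941 and 1883 with TPM, 1266 and 1299 with annotated isoforms, 1046 and 977 with the most abundant isoform, and 1700 to 1974 higher and 1318 to 2365 lower as each library was left out. The numbers 0 and 1 could not be matched to the labels' replicate numbers. Deviations of same-numbered libraries correlated at 0.464 over 13268 genes, in 2 pairs, and limma with the replicate block called 13 members higher and 6 lower (Foxd3 added, adjusted p = 0.0228) and 3607 genes higher and 4516 lower. The cause of these shifts was not tested. Alternatives that added class o isoforms were chosen after seeing the data.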
